A study of Mus musculus with 3 samples.

Results

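Brakes on the cell cycle were studied as 10 genes in cultured mouse hippocampal neurons, namely 6 genes of cyclin-dependent kinase inhibitors (Cdkn1a, Cdkn1b, Cdkn2a, Cdkn2b, Cdkn2c and Cdkn2d), the tumour suppressor genes Trp53 and Rb1, and Mdm2 and Mdm4, whose products hold p53 in check. They were taken by symbol from a table of 47593 gene rows, and all 10 were found. The libraries were 3 replicates of 1 group, wild-type (WT) primary neurons from the hippocampus, cultured at 37 °C under 5% CO2 (Neurobasal, 1% GlutaMAX, 10% B27) and given fresh medium with B27 and penicillin-streptomycin. The treatment time of these libraries was 24 h, as taken from the series design. That design sets such neurons against neurons given apoE particles for 24 h. The particle-treated libraries were not analysed here, so no treatment effect is reported. Nothing in the labels states that the replicates were separate cultures or animals, nor the age of the mice, so p-values measure a spread that could be purely technical.

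Cyclin-dependent kinases drive a cell from one phase of its cycle to the next. The CIP/KIP inhibitors p21 (Cdkn1a), p27 (Cdkn1b) and p57 (Cdkn1c) bind a range of cyclin-kinase complexes, whereas the INK4 inhibitors p16 (Cdkn2a), p15 (Cdkn2b), p18 (Cdkn2c) and p19 (Cdkn2d) bind the kinases CDK4 and CDK6. Blocking these kinases keeps the retinoblastoma protein RB in the form that holds back E2F factors and the genes of DNA replication. The transcription factor p53 switches on Cdkn1a, Mdm2 and many other genes, and MDM2 marks p53 for destruction, which closes a feedback loop. Neurons have left the cycle for good, and p21 and p16 are widely used as markers of senescence.

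Levels are given in reads per library, recovered from the deposited log2 values, in CPM (counts per 1000000 reads) as mean ± SD over the 3 libraries (n = 3), and, wherever genes are compared with each other, in CPM per kilobase of annotated exons. The libraries held 18683960 to 18885652 recovered reads, so that 3 reads, the limit taken for a gene without reads, stood for about 0.16 CPM. Intervals and limits of this kind cover counting error only. The deposited log2 values were pulled towards the mean of the libraries, so their SD understates the spread, and the SD in recovered reads is given beside it. Ratios between genes carry 0.5 CPM per kilobase added to both genes, which makes them smaller where 1 gene is low; for those the ratio with nothing added is given too.

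The highest and the lowest of the inhibitor genes are shown first by the sequence before their start sites, because Cdkn2a, the lowest, has a pair of start sites that a count per gene cannot separate. The stretches come from RefSeq on GRCm38.p6, run 5′ to 3′ on the gene's strand up to the first annotated exon base, and carry each CpG dinucleotide in capitals. Cdkn1b, the highest, lies on the plus strand and its stretch spans chr6:134920151-134920400. Both Cdkn2a stretches lie on the minus strand, the one before the distal first exon, from which the ARF transcript starts, at chr4:89294654-89294869 and the one before the proximal first exon, that of the p16 transcript, at chr4:89282193-89282442. The neighbouring Cdkn2b, also on the minus strand, has its stretch at chr4:89311040-89311282.
Cdkn1b: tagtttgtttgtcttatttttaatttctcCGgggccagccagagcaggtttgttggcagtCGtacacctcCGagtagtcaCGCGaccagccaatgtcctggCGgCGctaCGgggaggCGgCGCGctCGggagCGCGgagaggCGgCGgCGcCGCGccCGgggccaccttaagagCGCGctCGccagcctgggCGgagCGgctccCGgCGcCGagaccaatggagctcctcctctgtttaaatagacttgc
Cdkn2a, distal start: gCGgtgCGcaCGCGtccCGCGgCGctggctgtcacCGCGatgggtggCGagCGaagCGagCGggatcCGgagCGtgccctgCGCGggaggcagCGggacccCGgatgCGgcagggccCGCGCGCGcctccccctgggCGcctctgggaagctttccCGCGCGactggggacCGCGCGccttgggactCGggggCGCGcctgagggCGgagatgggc
Cdkn2a, proximal start: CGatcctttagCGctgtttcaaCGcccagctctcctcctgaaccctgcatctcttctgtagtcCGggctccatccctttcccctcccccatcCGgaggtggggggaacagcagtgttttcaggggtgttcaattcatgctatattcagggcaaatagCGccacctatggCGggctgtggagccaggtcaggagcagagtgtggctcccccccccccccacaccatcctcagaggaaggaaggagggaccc
Cdkn2b: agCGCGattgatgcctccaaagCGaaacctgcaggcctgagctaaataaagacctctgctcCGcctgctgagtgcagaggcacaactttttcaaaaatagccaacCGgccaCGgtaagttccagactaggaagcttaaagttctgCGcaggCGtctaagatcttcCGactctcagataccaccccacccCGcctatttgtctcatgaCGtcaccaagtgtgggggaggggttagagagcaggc

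In windows of 250 bases before the RefSeq start, the distal Cdkn2a start had 40 CpG dinucleotides, a number reached by 1.31% of the 32851 promoters in the table, and the proximal start had 7. Cdkn1b had 28 and Cdkn2b had 12, beside a median of 6 over all promoters. The E2F motif, searched as TTTCCCGC or TTTGGCGC on both strands, was found before the distal Cdkn2a start and in none of the other 12 promoter windows of the 9 genes matched. Of all promoters 1.30% held it. These are features of the sequence and say nothing about the use of a start in these cells.

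Expression of the 10 genes spanned more than 2 orders of magnitude. At 1 CPM or more in every library by the deposited values, 9 of the 10 were detected, against a background of 29.4% of all gene rows, of which 21897 had no read in any library. Cdkn2a was the exception. Per kilobase the order was Cdkn1b, Cdkn1a, Cdkn2d, Trp53, Mdm2, Rb1, Mdm4, Cdkn2b, Cdkn2c and Cdkn2a. Neighbours in this order were called different beyond their spread where the difference had the same sign in each library and exceeded 2 SD, and 7 of 9 neighbouring pairs met this. Mdm2 and Rb1 did not (log2 difference 0.02 ± 0.02, SD), nor did Cdkn2b and Cdkn2c (0.53 ± 0.32). Cdkn2d and Trp53, at 0.16 ± 0.08, met it narrowly, and only the union of exons put Cdkn2d first. Trp53 stood above Cdkn2d with the longest coding transcript (34.1 against 19.4) and with the median coding transcript (35.4 against 21.8). Without length scaling it did so as well (63.6 against 27.6 CPM). Without length scaling Mdm4 moved from rank 7 to rank 3.

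**Figure D1:**
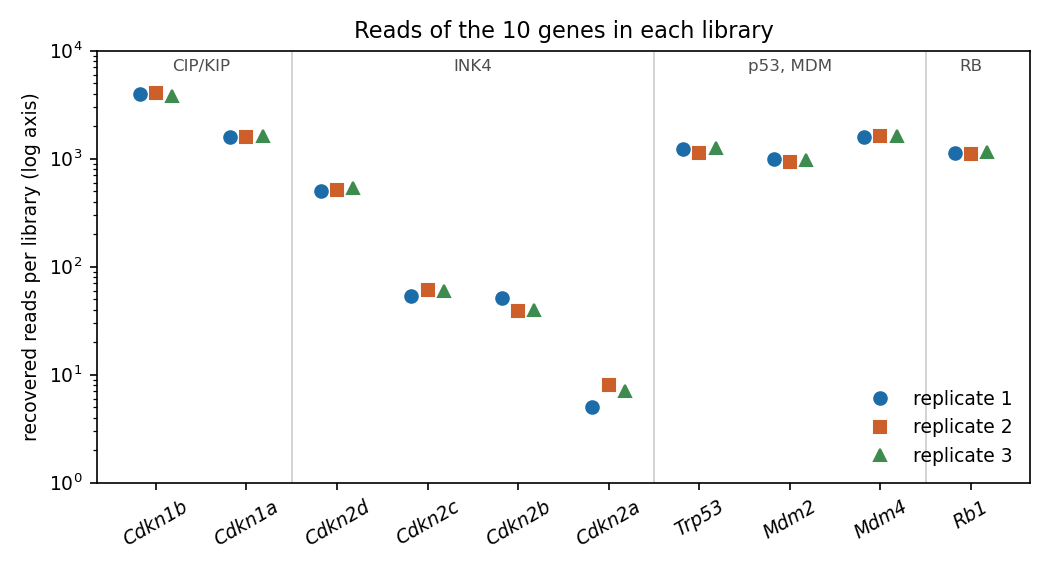
Recovered reads (log axis) of the 10 genes in each of the 3 libraries, 1 point per library, grouped by family. Cdkn1b lies highest at 3838 to 4047 reads and Cdkn2a lowest at 5 to 8, and for most genes the 3 points nearly coincide.

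Among the CIP/KIP genes, Cdkn1b (chromosome 6, 134920401 to 134925513, plus strand of GRCm38), encoding p27, the inhibitor that accumulates as precursors leave the cycle, had 4006, 4047 and 3838 reads in replicates 1, 2 and 3. This is 211 ± 6.97 CPM (mean deposited log2 value 11.95). Per kilobase it stood at 46.4 ± 1.53 CPM, above 92.7% of the 12791 detected protein-coding genes. This share and the like shares below are for annotated exon lengths only. Replicate 3 was the lowest library and replicate 2 the highest, a 1.06-fold range after scaling.

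Cdkn1a (chromosome 17, 29090976 to 29100727, plus strand), encoding p21, the classical p53 target among the inhibitors, had 1602, 1583 and 1627 reads, or 85.4 ± 0.72 CPM (log2 10.65). The 3 libraries nearly coincided, with a coefficient of variation of 1.06%, less than counting error alone gives a library at this depth. Of its 3553 exon bases 273 overlap AC167363.2 on the opposite strand. Its transcripts shared 301 of 3547 distinct 50-base stretches with other genes, 225 of them with AC167363.2. Part of its reads is thus uncertain. Per kilobase it reached 24.0 ± 0.20 CPM, above 83.7% of detected protein-coding genes. Within each library Cdkn1b exceeded Cdkn1a per kilobase, by 0.93 ± 0.03 log2 units in deposited values (a 1.91-fold ratio) and by 0.95, 0.98 and 0.87 in the recovered reads of replicates 1, 2 and 3. The size of this ratio rests on the exon lengths: annotated exons of Cdkn1b sum to 4552 bases, as does its longest coding transcript, whereas that of Cdkn1a has 2080, and with these lengths the ratio was 0.17.

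Cdkn1c, the imprinted gene of p57 and no member of the 10, was far lower, at 279 reads in all (4.95 ± 0.76 CPM). Replicate 2 was its lowest library, with 76 reads against 102 and 101. The per-kilobase ratio of Cdkn1b to Cdkn1c was 16.0-fold in deposited values, and on the log2 scale its SD was 0.23 in recovered reads and its value 4.26 with nothing added and 5.28 without length scaling.

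Of the INK4 genes 1 was well expressed and 3 were low. Cdkn2d (chromosome 9, 21288410 to 21291407, minus strand), which encodes p19-INK4d, an inhibitor known from postmitotic neurons, had 504, 513 and 539 reads, or 27.6 ± 0.86 CPM (log2 9.02). Its exons are short, 1574 bases in all. Per kilobase it thus stood at 17.5 ± 0.55 CPM, rank 3 of the 10 genes and above 76.7% of detected protein-coding genes. Its rank was 4 with the longest and 5 with the median coding transcript, and 7 without length scaling. Cdkn1b exceeded Cdkn2d by 1.38 ± 0.03 log2 units per kilobase (SD 0.09 in recovered reads), a 2.60-fold ratio. The size depends on the length taken: the log2 ratio was 1.24 with the longest and 1.99 with the median coding transcript, and 2.91 without length scaling.

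Cdkn2c (chromosome 4, 109660876 to 109667189, minus strand), encoding p18, had 53, 61 and 59 reads, or 3.07 ± 0.23 CPM (log2 5.85). Its log2 ratio to Cdkn2d per kilobase was −3.46 ± 0.01 (SD 0.06 in recovered reads) and −3.94 with nothing added. Cdkn2b (chromosome 4, 89306299 to 89311039, minus strand), encoding p15, had 51, 39 and 40 reads, or 2.31 ± 0.35 CPM (log2 5.44). Replicate 1 was the highest library for Cdkn2b and the lowest for Cdkn2c. The variation of both stayed under the counting error of a library, 14.9% against 15.2% for Cdkn2b and 7.77% against 13.2% for Cdkn2c. Which of the pair is higher could not be told apart from the spread, and their order turned without length scaling or with the median coding transcript as length.

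Cdkn2a, which carries both p16 and ARF (p19ARF in mouse), an activator of p53 through MDM2, had 5, 8 and 7 reads. Taken over the libraries this is 0.355 ± 0.08 CPM, with an exact 95% binomial interval of 0.217 to 0.548 CPM for the pooled reads. No library reached 10 reads. Its neighbour Cdkn2b was higher in each library, by 1.43 ± 0.01 on the log2 scale per kilobase (SD 0.29 in recovered reads) and by 2.45 with nothing added. Cdkn2d exceeded it by 4.49 ± 0.01 (SD 0.11 in recovered reads), or 5.86 with nothing added. The gene spans chromosome 4 from 89274471 to 89294653 on the minus strand of GRCm38. Its annotated transcripts start at separate first exons, at 89294334 to 89294653 and at 89281986 to 89282192, and share exon 2 and most of exon 3. In all, 575 bases, 49.1% of the annotated exon sequence, are common to both transcripts. Reads were counted per gene, so the 20 reads cannot be assigned to p16 or ARF. No stretch of 50 bases of Cdkn2a or Cdkn2b transcripts recurred in the transcripts of another gene.

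Counted together per kilobase with Cdkn1c, the 7 CIP/KIP and INK4 inhibitor genes gave a pool of which Cdkn1b made up 49.6% ± 1.27 (SD, n = 3), Cdkn1a 25.7% ± 0.41 and Cdkn2d 18.8% ± 0.72. The other 4 genes were minor: Cdkn1c held 2.60%, Cdkn2b 1.78%, Cdkn2c 1.22% and Cdkn2a 0.324%. The 3 CIP/KIP genes thus held 77.9% ± 0.63 and the 4 INK4 genes 22.1% ± 0.63. Without length scaling Cdkn1b took 63.0% and Cdkn2d 8.25% of the pool's reads. With the longest coding transcript as length, Cdkn1b (46.4 CPM per kilobase) and Cdkn1a (41.1) lay close together, above Cdkn2d (19.4). The shares thus rest on the length taken.

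Trp53 (chromosome 11, 69580359 to 69591873, plus strand), encoding p53, had 1222, 1119 and 1245 reads, or 63.6 ± 3.26 CPM (log2 10.22). Per kilobase it stood at 15.7 ± 0.81 CPM, above 74.4% of detected protein-coding genes. Replicate 2 was the lowest library, at 0.943 of the mean. Of the p53 relatives, Trp73 had 213 reads in all and Trp63 had 6, and Trp53 exceeded Trp73 by 3.78 ± 0.02 log2 units per kilobase (SD 0.10 in recovered reads), or 4.53 with nothing added and 4.79 with the longest coding transcript. Transcripts of Trp53 shared 154 of 4230 distinct 50-base stretches with the processed pseudogene Trp53-ps. The pseudogene had no reads in any library, or less than about 0.16 CPM in counted reads. Reads from such stretches could be lost to either gene, so this sets no limit on its true level.

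Mdm2 (chromosome 10, 117688875 to 117710758, minus strand), the ubiquitin ligase gene of the feedback loop, had 991, 938 and 978 reads, or 51.6 ± 1.29 CPM (log2 9.92). Its log2 ratio to Trp53 per kilobase was −0.61 ± 0.02 (SD 0.05 in recovered reads), so Mdm2 was the lower gene in each library. The ratio was −1.03 with the longest and −1.08 with the median coding transcript, and −0.30 without length scaling. Mdm4 (chromosome 1, 132959484 to 133030561, minus strand), encoding the MDM2 partner that binds p53 without destroying it, had 1581, 1616 and 1607 reads, or 85.3 ± 1.16 CPM (log2 10.64), about as many reads as Cdkn1a. Whether Mdm4 or Mdm2 was higher depended on the length taken. All annotated exons sum to 14798 bases for Mdm4 and 5083 for Mdm2. Per kilobase of these, Mdm4 lay below Mdm2, at −0.77 ± 0.02 log2 units (SD 0.05 in recovered reads). With the longest coding transcript it lay below at −0.44, whereas with the median coding transcript it lay above, at 0.55, and without length scaling at 0.72. Transcripts of Mdm4 shared 1092 of 14969 distinct 50-base stretches, out of 7.31% shared with any gene, with the processed pseudogene Mdm4-ps, which had 3 reads in all; reads from such stretches could be lost to either gene.

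Rb1, encoding the retinoblastoma protein, had 1139, 1107 and 1147 reads, or 60.2 ± 0.83 CPM (log2 10.14), with a coefficient of variation of 1.31% against a counting error of 2.97%. It lies on chromosome 14 from 73183673 to 73325822, on the minus strand. Of its 6015 exon bases 896, or 14.9%, overlap exons of Lpar6 and Rcbtb2 on the opposite strand, and no source used here says if strand was kept in counting, so reads from the overlap are uncertain. Rcbtb2 had 2706 reads in all and Lpar6 had 192. Among RB relatives, Rb1 exceeded Rbl2, encoding p130, the family member typical of resting cells, by 0.48 ± 0.01 log2 units per kilobase (SD 0.02 in recovered reads). This excess was 0.25 with the longest and 0.21 with the median coding transcript, and 0.18 without length scaling. Rb1 exceeded Rbl1, encoding p107, typical of cycling cells, by 2.91 ± 0.003 (SD 0.05 in recovered reads), or 3.47 with nothing added. The log2 ratio of Rb1 to Trp53 was −0.63 ± 0.02 per kilobase (SD 0.05 in recovered reads). It was −1.36 with the longest and −1.42 with the median coding transcript, and −0.08 without length scaling. Rb1 was thus the lower gene with each length, by an amount that the length sets. Without length scaling the order was not clear of the spread. The means were 60.2 ± 0.83 CPM for Rb1 and 63.6 ± 3.26 for Trp53, a gap under 2 SD of Trp53. In replicate 2 they were 59.2 and 59.9 CPM.

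**Figure D2:**
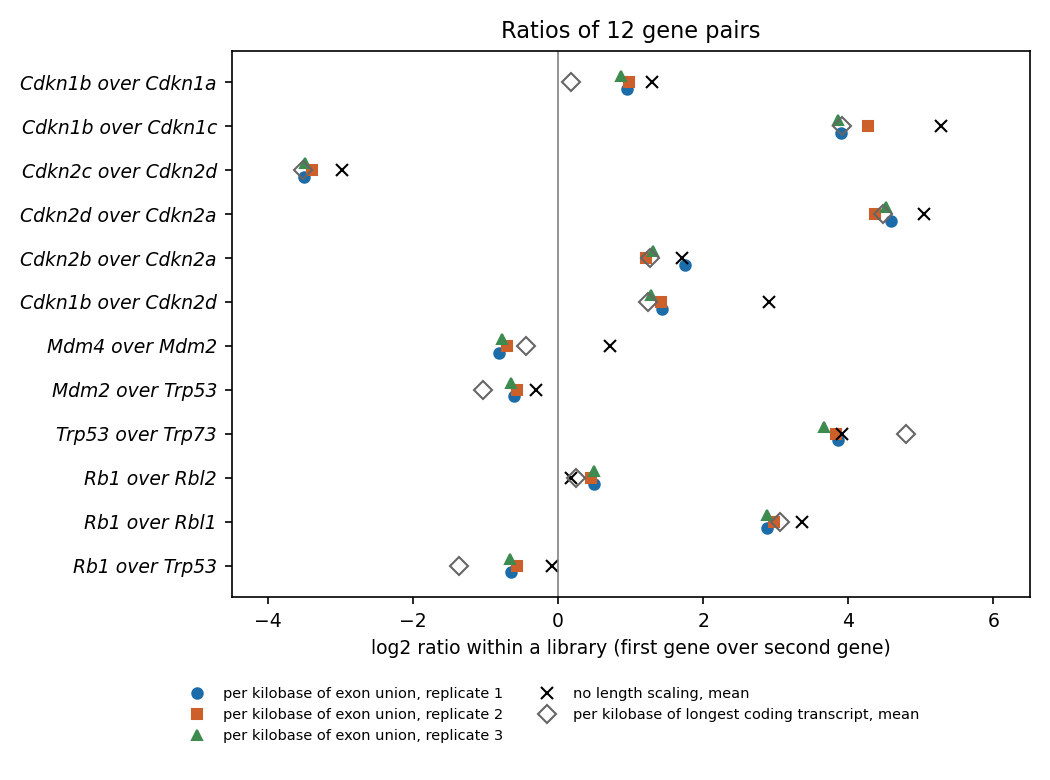
Log2 ratios of 12 gene pairs, first over second gene. Coloured points are recovered reads per kilobase of annotated exons in each library. Crosses are means without length scaling and diamonds are means with the longest coding transcript as length. The coloured points of most pairs lie close together. They spread wider for Cdkn2b over Cdkn2a (1.21 to 1.75) and Cdkn1b over Cdkn1c (3.85 to 4.27). The cross of Mdm4 over Mdm2, at 0.72, lies on the other side of 0 from its coloured points.

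All 12 gene pairs had the same sign in each of the 3 libraries, 8 with the first gene higher and 4 with the second. The two-sided exact sign-flip permutation p was 0.25 for each pair (0.25 after Benjamini-Hochberg adjustment over the 12), the smallest value that 3 libraries allow, so no ratio could pass 0.05. The SD of the ratios in recovered reads was 0.02 to 0.29.

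Replicates were then compared to see whether any of the genes varied between libraries given the same medium. Of the 9 genes that averaged at least 10 reads, none differed by more than counting error (Pearson chi-square test of recovered reads, Benjamini-Hochberg adjustment over 15131 genes), where the background was 8.62% of all genes tested. Before adjustment 2 of the 9 had a chi-square p under 0.05. For Cdkn1b the chi-square p was 0.0199 (adjusted 0.139, and 0.104 to 0.802 over the alternatives run). For Trp53 the chi-square p was 0.0483 (adjusted 0.237, and 0.101 to 0.918 over the alternatives run). The 7 others had adjusted chi-square p-values of 0.673 to 0.931. Against the wider dispersion trend implied by the deposited values, likewise none of the 9 was called, none had an unadjusted chi-square p under 0.05, and the background was 0.126%. These p-values do not show that the genes are equal in the libraries. The widest range among the 9 was 1.29-fold, for Cdkn2b, and Cdkn2a, with too few reads to be tested, ranged 1.62-fold.

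**Figure D3:**
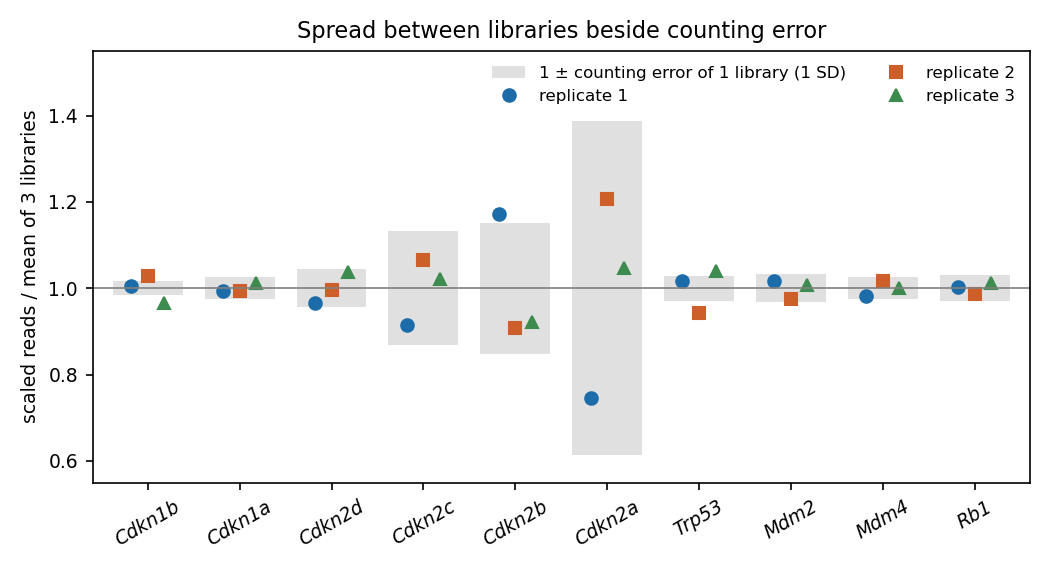
Reads scaled by size factors and divided by the mean of the 3 libraries, 1 point per library; the grey boxes span 1 plus and minus the counting error (1 SD) of a library. Points outside a box are few, among them replicate 3 of Cdkn1b and replicate 2 of Trp53 below it, and the box of Cdkn2a is the widest.

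Other genes of the pathway were read from 7 lists. The following levels are CPM per kilobase, detection is by the deposited values, and differences between libraries are those beyond counting error; none of the lists held a gene that differed beyond the dispersion trend. Over the 7 lists 7 of 86 tested genes, or 8.14%, differed beyond counting error, a share near the 8.62% of all genes tested, so the counts below show nothing particular to these lists. The other inhibitor, p53 and RB family genes (Cdkn1c, Trp63, Trp73, Rbl1 and Rbl2) were detected in 4 of 5 cases with a median of 0.903, from 0.0127 for Trp63 to 7.02 for Rbl2, and 0 of 4 tested differed. Over all 13986 detected genes the median was 6.11, and over the 10 genes described above it was 10.1. Places within a list rest on the annotated exon lengths.

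All 25 listed targets of p53 were detected, with a median of 7.02. The highest were Ddit4, an inhibitor of mTOR signalling that stress also switches on without p53, at 84.5, and Sesn2, a stress-induced sestrin, at 80.3. The lowest were the death receptor genes Tnfrsf10b, at 0.830, and Fas, at 1.57. Between libraries 3 of the 25 differed. All 14 listed regulators of p53 were detected as well, with a median of 5.96. The highest were Usp7, the deubiquitinase of MDM2 and p53, at 16.2, and the acetyltransferase gene Kat5 at 15.4. The lowest were the DNA damage kinase genes Atr (0.849) and Chek2 (0.857). Without length scaling Atr stood at 20.1 CPM, above Chek1 (6.09) and Chek2 (2.57), so its place rests on its exon length. Between libraries 2 of the 14 differed.

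The kinases and cyclins that the inhibitors bind were uneven. Of 11 genes 10 were detected, with a median of 2.62. Cdk4, the kinase bound by INK4 proteins, was highest at 40.0, followed by its partner Ccnd2, encoding cyclin D2, at 24.2. Cdk6, the other INK4 target, stood at 0.524 with 413 reads in all. Without length scaling it had 7.33 CPM, above Cdk1 (2.96) and Cdk2 (4.94) and far below Cdk4 (130). Ccna1, the germline cyclin A gene, had 36 reads and was not detected. Between libraries 1 of the 11 differed. Of 10 E2F and DP factors 9 were detected, with a median of 2.89. They were led by the dimer partner Tfdp1 (19.9) and by E2f5 (13.6), a factor that represses with p130, whereas E2f8 stood at 0.196 and E2f2, which had 25 reads, was not detected. E2f8 counts as detected by the deposited values, although it had 19, 17 and 24 reads. None of the 9 tested differed between libraries.

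Regulators of p27 and of the INK4 genes were all detected, 11 of 11, with a median of 6.40. The highest were Rnf2 at 43.5 and Bmi1 at 28.2, genes of Polycomb repressive complex 1, which silences the Cdkn2a locus in other cells. Lowest were Cbx7, a gene of the same complex, at 1.29 and Skp2, the F-box gene of p27 destruction, at 2.05. Genes of the complex thus lay at both ends of the list. Between libraries 1 of the 11 differed.

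Genes of replication and mitosis were read as well, 11 of 12 at 1 CPM or more, with a median of 1.52. Pcna, which also serves DNA repair, reached 34.0 and Mcm6 7.80, while the mitotic kinase genes Bub1 (0.330) and Aurkb (0.325, 54 reads, not detected) were the lowest. None of the 12 differed between libraries, and their summed level was 199 to 207 CPM in the libraries.

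**Figure D4:**
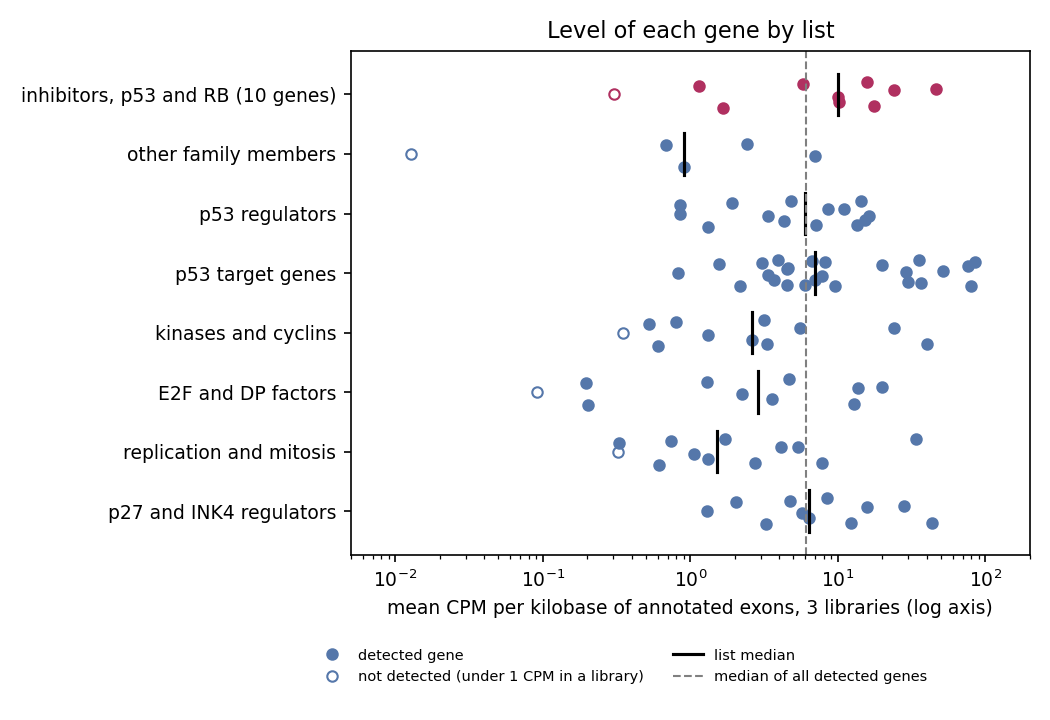
Mean level (CPM per kilobase of annotated exons, log axis) of each gene, 1 point per gene, for the 10 genes described and the 7 pathway lists; open circles are genes under 1 CPM in a library by the deposited values, black bars list medians and the dashed line the median of all detected genes, 6.11. The 10 genes span 0.303 to 46.4, and the medians of the p53 targets (7.02), p53 regulators (5.96) and p27 and INK4 regulators (6.40) lie near the dashed line.

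Markers of the labelled cell type and of others were read beside these genes. All 8 neuron markers were detected, with 6190 to 6236 CPM in sum, led per kilobase by Mapt. Astrocyte markers came to 1895 to 1921 CPM (7 of 8 detected, led by Slc1a3), neural progenitor markers to 1051 to 1092 (7 of 7, led by Fabp7) and oligodendrocyte precursor markers to 250.2 to 267.5 (4 of 5, led by Olig1). Oligodendrocyte, microglia, endothelial and mural or fibroblast markers came to 34.7 to 37.0, 5.11 to 6.88, 5.14 to 5.43 and 54.7 to 60.7 CPM, with 3 of 6, 1 of 8, 1 of 6 and 4 of 7 detected. Highest per kilobase in these lists were Mog, C1qa, Kdr and Acta2, and Cldn5 and Kcnj8 had no reads. The sums hide differences between libraries in single markers. Beyond counting error, 6 of 8 neuron, 3 of 7 astrocyte, 2 of 7 progenitor and 1 of 4 oligodendrocyte precursor markers tested differed, and none of the other 4 lists. In all, 12 of 42 tested markers, or 28.6%, differed, beside 8.62% of all genes tested. The test can call a smaller difference where a gene has more reads, so lists with few reads cannot be set against the others. None differed beyond the dispersion trend. The 12 that differed had 5402 to 114482 reads in all and ranged 1.04- to 1.13-fold between libraries. Map2, a neuron marker, stood at 0.983, 1.04 and 0.977 times its mean in replicates 1, 2 and 3, and Tubb3, another, at 1.04, 0.952 and 1.00, so replicate 2 was the highest for the first and the lowest for the second. Their part in the levels of the 10 genes was not tested. In bulk RNA a low level in many cells and a high level in few cannot be told apart, and which cells carried the transcripts of the 10 genes was not tested.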

How the data were processed

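RNA of 3 libraries of 1 group was analysed. For each library the authors deposited log2 expression values of all genes; per the submitters' processing notes FastQC, HISAT2, featureCounts and DESeq2 were used on GRCm38, whose versions and settings are not given. The form of the values was that of a regularized log. Beside the deposited values, reads were recovered by inverting such a fit, a penalised negative binomial model described by 6 parameters. Among 67797 recovered values 99.9% were whole to within 0.1 (chance gives 20%), and refitting returned the deposited values within 0.001; of values of the 71 genes at log2 14 or more, 87.3% were whole. Median-of-ratios size factors of the recovered reads matched the fitted ones.

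Detection used CPM from the deposited values. Exon lengths came from GENCODE M21 (45908 rows matched; the union of exons can exceed the expressed transcript). Pair ratios added 0.5 CPM per kilobase. Variation used a chi-square on 2 degrees of freedom, checked on simulated data. Members, lists, pairs and tests were chosen with earlier results of these data known. Named genes were the 10, the pairs, the 2 highest and 2 lowest of each pathway list, any that differed beyond the trend, and of each cell type list the highest and those without reads; others were named after their values were seen. Alternatives covered lengths, thresholds, normalization and leaving out each library. Python 3.11.15, numpy 2.4.6 and scipy 1.17.1 were used.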

Additional observations from a re-analysis of the deposited data

How the results depend on the processing

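Of 235 alternative values computed, 226 kept their direction, stayed within 1 SD or stayed within 1.5 times a count, 7 counts moved further and 2 ratios reversed. Of the 226, at least 90 were fixed in advance and say nothing about stability. Of these 90, 36 ratios with a library left out and 24 with another value added to both genes cannot change sign. The 30 levels with a library left out cannot move by 1 SD. Counts of detected genes with no filter equal the list sizes, so they are fixed too, and they are not among the 90. The sizes of ratios to low genes did move with the value added; with 5 CPM per kilobase added, Cdkn2b over Cdkn2a was 0.33 and Cdkn2d over Cdkn2a 2.09. The reversals were Mdm4 over Mdm2 without length scaling (0.72) and with the median coding transcript (0.55), against −0.77; both follow from the length used. The other 106 of 108 alternative pair ratios kept their direction. At 5 CPM instead of 1 CPM, 2 instead of 4 of the other inhibitor, p53 and RB family genes were detected and 7 instead of 11 of the replication and mitosis genes. Of the 10 genes described, 7 instead of 9 were detected at 5 CPM, because Cdkn2b and Cdkn2c fell below it. The number of the 9 tested members called stayed at 0 under each alternative and for each library left out. Over all genes 1304 differed by more than counting error, 715 when size factors were fitted in bins of GC content and exon length, and 334 to 1187 with 1 library left out (334 without replicate 2, 835 without replicate 3). Against the dispersion trend 19 were called, and 3 to 19 with 1 library left out (3 without replicate 1, 10 without replicate 2); the cause was not tested. Of the 45 possible pairs of the 10 genes, 36 kept their order without length scaling, 44 with the longest and 40 with the median coding transcript. Depth limits Cdkn2a above all, with 20 reads in all. No paired analysis was possible because the libraries form a single group.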

Other observations

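Beside Cdkn1a lies Trp53cor1, a long noncoding RNA gene also known as lincRNA-p21 and a target of p53. It had 45, 55 and 36 reads in replicates 1, 2 and 3, or 2.42 ± 0.52 CPM (SD, n = 3), and was chosen after its values were seen.

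Of 86 pathway genes tested, 7 (8.14%) differed between libraries beyond counting error, a share near the 8.62% of all genes, so they are given as values and not as a finding about the pathway (chi-square test of recovered reads, Benjamini-Hochberg adjustment over 15131 genes), and none beyond the dispersion trend. Zmat3, a p53 target encoding an RNA-binding protein, stood at 1.00, 0.921 and 1.08 times its mean in replicates 1, 2 and 3 (adjusted p = 0.00258). Its call was lost without replicate 2 (adjusted p = 0.412) and without replicate 3 (0.155). Ccng1, encoding cyclin G1, stood at 0.988, 1.05 and 0.965 (adjusted p = 0.0036 by the chi-square test) and lost the call with GC content and length bins (0.636), without replicate 2 (0.674) and without replicate 3 (0.118). Gadd45a, a DNA damage response gene, stood at 1.19, 0.821 and 0.994 (adjusted p = 0.0207 by the chi-square test) and lost the call without replicate 1 (0.291) and without replicate 2 (0.456). Cdk1, the mitotic kinase gene, with 167 reads in all, stood at 0.787, 0.833 and 1.38 (adjusted p = 0.0309 by the chi-square test) and lost the call with no filter on reads (0.0519) and whichever library was left out (0.0627 to 0.948). The other 3, Ep300, Rchy1 and Rnf2, likewise lost the call in at least 1 of these alternatives. The named genes of this paragraph were chosen after their values were seen.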
